A study of Mus musculus with 8 samples.

Results

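The mouse miRNA names mmu-miR-5099, mmu-miR-5100, mmu-miR-6236, mmu-miR-6237, mmu-miR-6238, mmu-miR-6239 and mmu-miR-6240, were examined in primary murine articular chondrocytes. They are 7 of the 1966 names in the deposited count table, and they were chosen by name, as annotations that may overlap fragments of other RNAs. Earlier results of these data, among them the abundance and fold change of miR-5099, were known when the set was drawn up, so its levels are a description.

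The cells came from the cartilage of femoral heads of wild-type mice aged 3 weeks, whose strain was not given in the sources used here. After digestion with collagenase the cells were seeded in plates. They then received vehicle (n = 4 libraries) or the proinflammatory cytokine IL-1β at 1 ng/ml for 24 h (n = 4 libraries), and no gene was altered in either group. No source said whether the libraries came from separate animals or cultures, so p-values measure the spread between these libraries, which may be technical.

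A canonical miRNA is cut by Drosha and Dicer from a stem-loop precursor, and its bases 2 to 8, the seed, pair with target mRNAs. Small RNA libraries also take up short pieces of ribosomal RNA (rRNA), transfer RNA (tRNA) and other abundant RNAs. Such pieces can be registered as a miRNA when they match a stretch of genome that can be drawn as a hairpin. None of the 7 names carried an arm suffix (5p or 3p), whereas 83.8% of the names in the table did.

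RefSeq (build GRCm38.p6) listed a mature sequence for 6 of the names, shown because these letters were searched for in other RNAs. The seed is in capitals.
mmu-miR-5100: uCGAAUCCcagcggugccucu
mmu-miR-6236: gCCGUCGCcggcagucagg
mmu-miR-6237: uUAAGGAUugggucuuggaauuc
mmu-miR-6238: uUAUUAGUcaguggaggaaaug
mmu-miR-6239: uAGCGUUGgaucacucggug
mmu-miR-6240: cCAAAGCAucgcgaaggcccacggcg

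The mature sequences were 19 to 26 nt long and equal in length to the entry in the count table, and the table gave 20 nt for miR-5099. No seed was shared within the set. The seed of miR-6239 was also that of miR-6351, and the seed of miR-6240 was also that of miR-330-3p. No run longer than 6 bases was common to any pair of the 6 sequences. G and C made up 78.9% of miR-6236, 69.2% of miR-6240, 61.9% of miR-5100 and 55.0% of miR-6239, against a median of 52.2% over 1679 mature sequences. In miR-6237 and miR-6238 the shares were 39.1% and 36.4%.

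The precursors lay on 6 chromosomes. Mir5099 (chromosome 12, 36816205 to 36816278, plus strand), Mir6238 (chromosome 7, 53891761 to 53891889, minus strand) and Mir6240 (chromosome 5, 114851948 to 114852064, plus strand) were outside other annotated genes. Mir5100 (chromosome 11, 60728663 to 60728726, plus strand) lay in an intron of Mief2, which encodes a mitochondrial dynamics protein, on the same strand. Mir6237 (chromosome 9, 9894431 to 9894521, plus strand) was intronic to Cntn5, a neural cell adhesion gene on the opposite strand. Mir6239 (chromosome 14, 117953743 to 117953847, minus strand) was intronic to Gpc6, a cell-surface glypican gene, again on the opposite strand. Mir6236 (chromosome 9, 110281287 to 110281409, plus strand) lay within the RefSeq long non-coding RNA gene Gm39429 and in no other GENCODE gene.

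Hairpin sequences were listed for 5 of the names, shown because their predicted folds are compared below. The mature sequence is in capitals where it was listed.
Mir5099, chr12:36816205-36816278, plus strand: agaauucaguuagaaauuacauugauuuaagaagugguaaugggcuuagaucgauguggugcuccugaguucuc
Mir5100, chr11:60728663-60728726, plus strand: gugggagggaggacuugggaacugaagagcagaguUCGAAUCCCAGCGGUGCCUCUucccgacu
Mir6237, chr9:9894431-9894521, plus strand: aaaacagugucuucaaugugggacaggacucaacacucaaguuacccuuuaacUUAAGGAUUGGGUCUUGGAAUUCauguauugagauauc
Mir6238, chr7:53891761-53891889, minus strand: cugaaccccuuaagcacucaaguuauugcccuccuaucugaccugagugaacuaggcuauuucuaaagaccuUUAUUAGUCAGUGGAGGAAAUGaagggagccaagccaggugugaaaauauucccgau
Mir6240, chr5:114851948-114852064, plus strand: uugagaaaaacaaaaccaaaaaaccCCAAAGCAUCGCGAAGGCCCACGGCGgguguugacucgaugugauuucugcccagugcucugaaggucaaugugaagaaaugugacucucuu

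The predicted folds differed in stability. The minimum free energy, computed with RNAfold and divided by length, was -0.388 kcal/mol per nt for Mir5100 and -0.359 for Mir5099, near the median of -0.406 over 1005 mouse hairpins. Mir6237 was less stable, at -0.309. Mir6238 and Mir6240 lay at the weak end, at -0.208 and -0.211, and 98.7% and 98.5% of all hairpins were more stable per nt. In the same prediction 54.3% of the bases of Mir6238 and 58.1% of those of Mir6240 were paired, against a median of 69.0% over all hairpins.

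**Figure D1:**
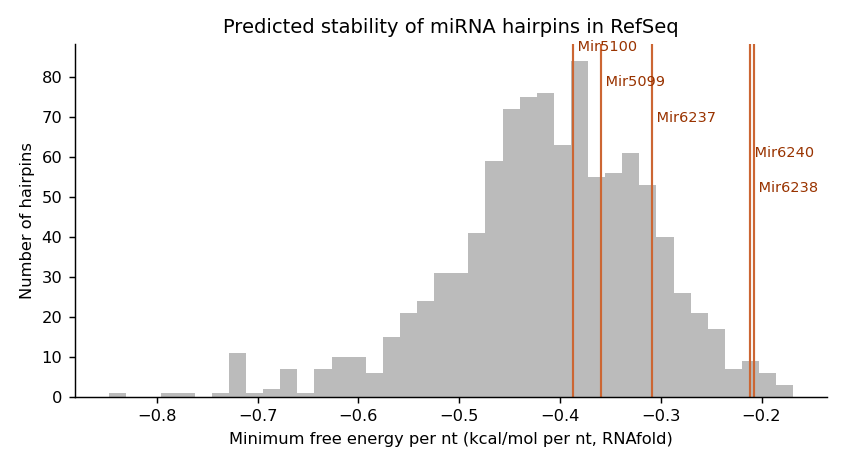
Histogram of the predicted minimum free energy per nt (kcal/mol per nt, x axis) of 1005 mouse hairpins listed in RefSeq (number of hairpins, y axis), with a line for each of the 5 hairpins of the set. Mir6238 (-0.208) and Mir6240 (-0.211) lie in the weak tail, and Mir5100 (-0.388) and Mir5099 (-0.359) lie near the median of -0.406.

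Whether these sequences occur in other RNAs was searched in the 141767 transcripts of GENCODE vM21, on both strands. None of the 6 mature sequences was found whole in a transcript other than its own precursor. Against 3910 short non-coding transcripts, which included 354 of rRNA class as well as small nuclear, small nucleolar and mitochondrial RNAs, the closest stretch differed by 4 edits (miR-5100 and miR-6236), 5 edits (miR-6237, miR-6238 and miR-6239) or 7 edits (miR-6240). At least 74.3% of mature miRNAs of equal length, the member itself included, came as close, so this distance sets none of the 6 apart. For miR-6240 and miR-6236 that comparison held only 11 and 31 miRNAs. Which rRNAs the 354 transcripts covered was not examined. The precursor of the large rRNAs and nuclear tRNAs were not used here, and an origin of the 7 names in rRNA or tRNA was not tested.

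A pair of short motifs, picked after the sequences were seen, were looked up on both strands. The letters GTTCGANNC, the core of the B box, an internal promoter element of tRNA genes, occurred in Mir5100 and spanned the start of its mature sequence. They were found in 0.498% of hairpins (5 of 1005), the others being Mir434, Mir490, Mir1983 and Mir6364. The letters TGGAATT occurred near the 3′ end of mature miR-6237. They were found on either strand in 0.536% of mature sequences (9 of 1679), and in sense, as in miR-6237, in 6 of them. They are also the opening letters of the 3′ adapter of widely used Illumina small RNA kits. The kit used for these libraries was not given in the sources used here, and the part of adapter sequence in these counts was not tested.

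Depth was moderate, at 616475 to 1568367 counts per library, so 1 count was worth 0.638 to 1.62 CPM (counts scaled to a common library total). Abundance is given as normalized CPM, scaled with TMM (trimmed mean of M values) factors of 0.932 to 1.04. The cartilage markers miR-140 and miR-455 were present, with 15.6% to 16.8% of counts in vehicle libraries and 12.4% to 15.3% in IL-1β libraries over 4 arms, and their part in the results was not tested. The most abundant of them, miR-140-3p, averaged 155137 ± 7341 normalized CPM for vehicle and 139691 ± 9302 for IL-1β (SD over 4 libraries, edgeR adjusted p = 0.546). None of the 4 arms was called, their median log2 fold change was -0.22, and the lowest was -0.35 for miR-455-3p (adjusted p = 0.0691). Of other cell type markers, the 3 of muscle (among them miR-1a-3p and miR-133a-3p) and the 1 of liver or serum (miR-122-5p) had 0 counts. Those of endothelium (miR-126a-3p with a count, miR-126a-5p at 0) and epithelium (3 of 4 with a count, led by miR-141-3p and miR-200b-3p) took at most 0.000576% of a library. Of 6 haematopoietic markers, miR-142a-3p, miR-144-3p, miR-223-3p and miR-451a were at 0. The other two, miR-142a-5p (4 counts in all) and miR-150-5p (edgeR log2 fold change -0.51 at an adjusted p = 0.196), took 0.00441% to 0.00638% of vehicle and 0.00260% to 0.00471% of IL-1β libraries. In cultures measured in bulk, fewer cells of a type and less RNA per cell cannot be told apart.

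IL-1β replicate 4 stood apart from the other libraries of its group. Over the 195 miRNAs that averaged 50 counts or more, the SD of its log2 deviations from the mean of the other 3 was 0.40, against 0.15 to 0.23 for the other 7 libraries. Its deviation was -0.81 for miR-5100, -0.46 for miR-6239, -0.35 for miR-5099, -0.23 for miR-6238 and -0.23 for miR-6240. miR-6237 and miR-6236 deviated by 0.02 and -0.09.

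All 7 names had counts in all 8 libraries and passed the filter for testing (over 1 CPM in at least 4 libraries). Their summed share of a library was 5.31% ± 0.391 in the vehicle group and 5.68% ± 0.972 in the IL-1β group (SD over 4 libraries), a difference smaller than the spread between libraries. Almost all of this was miR-5099, which made up 94.96% to 96.28% of the counts of the set in each library. The summed share of the other 6 names was 0.234% ± 0.0198 in the vehicle group and 0.256% ± 0.0422 in the IL-1β group (SD over 4 libraries).

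The levels ran over several orders of magnitude in normalized CPM. miR-5099 ranked 5th of all names by mean normalized CPM, miR-6240 ranked 65th, miR-6239 75th, miR-5100 87th, miR-6237 114th, miR-6238 219th and miR-6236 320th. Most neighbors in this order kept their places in every library. miR-6239 exceeded miR-6240 in IL-1β replicate 2 alone, by a count ratio of 1.05. miR-6237 exceeded miR-5100 in IL-1β replicate 4 alone, where the count ratio of miR-5100 to miR-6237 was 0.934. Per nt of listed length, miR-6239 lay above miR-6240, at 38.2 against 36.3 normalized CPM per nt, so the order of those names depends on the scale. In mean normalized CPM over all libraries, miR-5099 stood between miR-181a-5p (90785.5) and miR-125a-5p (43158). miR-6240 stood between miR-193b-3p and let-7g-5p, miR-6239 between miR-196a-5p and miR-322-3p, and miR-5100 between miR-21a-5p and miR-676-3p. Lower down, miR-6237 stood between miR-877-3p and miR-146a-5p, miR-6238 between miR-674-5p and miR-1943-5p, and miR-6236 between miR-5128 and miR-543-3p.

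**Figure D2:**
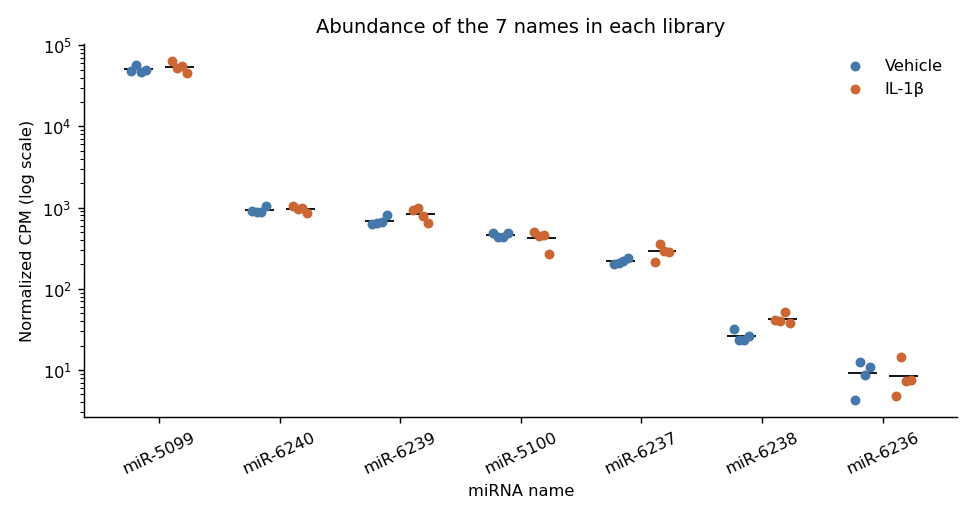
Normalized CPM (log scale, y axis) of the 7 names (x axis) in each of 4 vehicle and 4 IL-1β libraries (points, in replicate order from left to right), with the group mean as a line. miR-5099 lies between 45189.9 and 64032 and miR-6236 between 4.24 and 14.3, and for miR-6238 alone the points of the groups do not overlap.

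To ask which of these names respond to IL-1β, each was read from a comparison of all 564 miRNAs that passed the filter (edgeR quasi-likelihood test, Benjamini-Hochberg adjusted over all of them). A miRNA was called at an adjusted p under 0.05 and an absolute log2 fold change over 0.3. None of the 7 names was called, where 1.95% of all tested miRNAs were (11 of 564). At an unadjusted p under 0.05 there were 63 miRNAs, and miR-6237, miR-6238 and miR-6239 were among them. The groups did not overlap for 1 of the 7 names, miR-6238, where this held for 7.62% of all tested miRNAs. The median log2 fold change was 0.12 over the 7 names and 0.01 over all 564. Intervals below are 95% confidence intervals that are not adjusted for the number of miRNAs.

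miR-6238 was the name nearest to a call. Its vehicle libraries (replicates 1 to 4) held 31.8, 23.4, 23.7 and 26.5 normalized CPM, from 30, 35, 38 and 17 counts. Its IL-1β libraries held 41.6, 40.5, 51.1 and 37.6 normalized CPM, from 26, 48, 35 and 30 counts. Every IL-1β library was above every vehicle library. Means ± SD over 4 libraries were 26.3 ± 3.90 normalized CPM for vehicle and 42.7 ± 5.88 for IL-1β. edgeR put the log2 fold change at 0.71 (SE 0.194, interval 0.31 to 1.11), at an adjusted p = 0.0573. Counting error alone gives a coefficient of variation of about 18.9% and 17.3% at these counts, and the observed values were 14.8% and 13.8%. The call was made without IL-1β replicate 4 (0.77, adjusted p = 0.0197) and without vehicle replicate 1 (0.80, adjusted p = 0.0388). The same name was called with a filter of at least 10 counts on average (adjusted p = 0.0404) and with edgeR without its robust option (adjusted p = 0.0473). Over 16 alternatives its adjusted p spanned 0.0197 to 0.235.

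miR-6237 was higher on average with IL-1β. Vehicle replicates 1 to 4 held 204.6, 206.2, 222.4 and 236.8 normalized CPM. IL-1β replicates 1 to 4 held 216, 359, 295 and 287 normalized CPM. IL-1β replicate 1 lay within the vehicle range, and the other 3 lay above it. Means ± SD over 4 libraries were 218 ± 15.1 normalized CPM for vehicle and 289 ± 58.5 for IL-1β. edgeR put the log2 fold change at 0.43 (SE 0.122, interval 0.18 to 0.68), at an adjusted p = 0.0644. Without IL-1β replicate 1 it was called (0.54, adjusted p = 0.00726), as it was without IL-1β replicate 4 (0.46, adjusted p = 0.0177) and without a filter on low counts (0.41, adjusted p = 0.0289). Without IL-1β replicate 2, its highest library, the log2 fold change was 0.27 (adjusted p = 0.408).

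miR-6239 showed a smaller difference. Vehicle replicates 1 to 4 held 636, 649, 659 and 801 normalized CPM. IL-1β replicates 1 to 4 held 944, 994, 779 and 654 normalized CPM. IL-1β replicates 1 and 2 exceeded all vehicle libraries, whereas replicates 3 and 4 lay within the vehicle range. Means ± SD over 4 libraries were 686 ± 76.9 normalized CPM for vehicle and 843 ± 156 for IL-1β. edgeR put the log2 fold change at 0.30 (SE 0.112, interval 0.07 to 0.53), at an adjusted p = 0.196. Without IL-1β replicate 4 the log2 fold change was 0.42 and the name was called (adjusted p = 0.00364, where all alternatives spanned 0.00364 to 0.649). Without IL-1β replicate 2 it was 0.18.

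**Figure D3:**
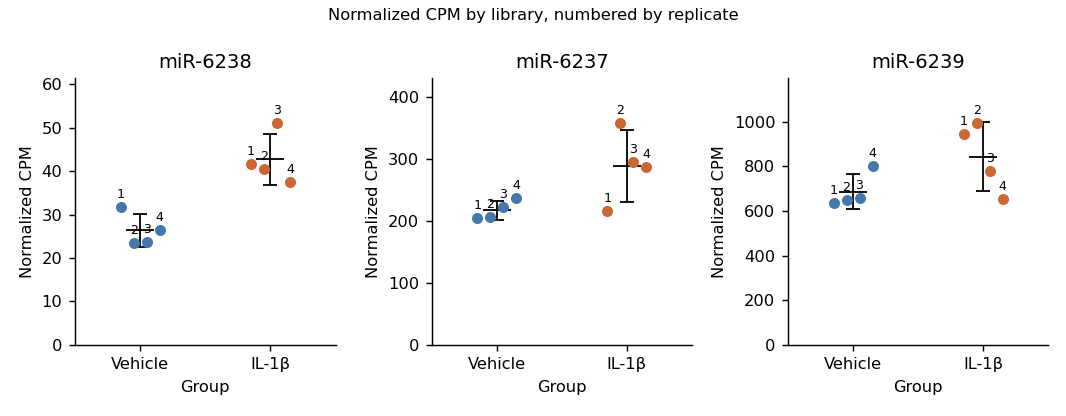
Normalized CPM (y axis, from 0) of miR-6238, miR-6237 and miR-6239 in vehicle and IL-1β libraries (x axis); points are libraries numbered by replicate, and bars are the mean and SD of 4. For miR-6238 the IL-1β libraries (37.6 to 51.1) lie above the vehicle libraries (23.4 to 31.8), and for the other two names the groups overlap.

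miR-6240 differed little between the groups. Vehicle replicates 1 to 4 held 915, 872, 872 and 1037 normalized CPM. IL-1β replicates 1 to 4 held 1054, 949, 998 and 852 normalized CPM. The groups overlapped over most of their range, and the highest library of each group was also its shallowest. Group means (± SD, 4 libraries each) were 924 ± 78.1 normalized CPM for vehicle and 963 ± 85.6 for IL-1β. edgeR put the log2 fold change at 0.06 (SE 0.0899, interval -0.12 to 0.25), at an adjusted p = 0.843. Omitting IL-1β replicate 1 gave 0.018, and omitting IL-1β replicate 4 gave 0.12.

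miR-5099, the abundant member, did not pass the test either. Vehicle replicates 1 to 4 held 48104, 56939, 46366 and 49913 normalized CPM. IL-1β replicates 1 to 4 held 64032, 52837, 56139 and 45189.9 normalized CPM. The highest and the lowest of the 8 libraries were both IL-1β libraries, replicates 1 and 4. Group means (± SD, 4 libraries each) were 50330.4 ± 4638 normalized CPM for vehicle and 54549 ± 7809.7 for IL-1β. edgeR put the log2 fold change at 0.12 (SE 0.0966, interval -0.08 to 0.32), at an adjusted p = 0.753. Omitting IL-1β replicate 1 gave 0.032 (adjusted p = 0.940), and omitting IL-1β replicate 4 gave 0.20 (adjusted p = 0.105). Counting error alone gives a coefficient of variation of 0.434% and 0.484% at these counts, and the observed values were 9.21% and 14.3%.

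miR-5100 was the only name apart from miR-6236 with a lower mean under IL-1β. Vehicle replicates 1 to 4 held 482, 435, 429 and 481 normalized CPM. IL-1β replicates 1 to 4 held 504, 448, 463 and 268 normalized CPM. Replicate 4 was far below all other libraries, and the other 3 IL-1β libraries lay within or just above the vehicle range. Means ± SD over 4 libraries were 457 ± 29.0 normalized CPM for vehicle and 421 ± 104 for IL-1β. edgeR put the log2 fold change at -0.12 (SE 0.139, interval -0.41 to 0.17), at an adjusted p = 0.796. Without IL-1β replicate 4 the log2 fold change was 0.052, so the direction rested on that library.

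miR-6236 was scarce, with 3 to 19 counts per library. Vehicle replicates 1 to 4 held 4.24, 12.7, 8.75 and 10.9 normalized CPM. IL-1β replicates 1 to 4 held 4.80, 14.3, 7.31 and 7.52 normalized CPM. The groups overlapped over most of their range, with IL-1β replicate 2 above and vehicle replicate 1 below all libraries of the other group. Group means (± SD, 4 libraries each) were 9.14 ± 3.64 normalized CPM for vehicle and 8.49 ± 4.08 for IL-1β. edgeR put the log2 fold change at -0.01 (SE 0.394, interval -0.83 to 0.80), at an adjusted p = 0.992. Its sign was kept in 10 of 15 alternatives, and the value was -0.52 without IL-1β replicate 2 and 0.24 without vehicle replicate 2, so no direction can be read. Counting error alone gives a coefficient of variation of 34.4% and 41.9% at these counts, and the observed values were 39.8% and 48.1%. For the 3 counts of IL-1β replicate 1, the exact Poisson interval was 0.619 to 8.77 counts, which covers counting error only.

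**Figure D4:**
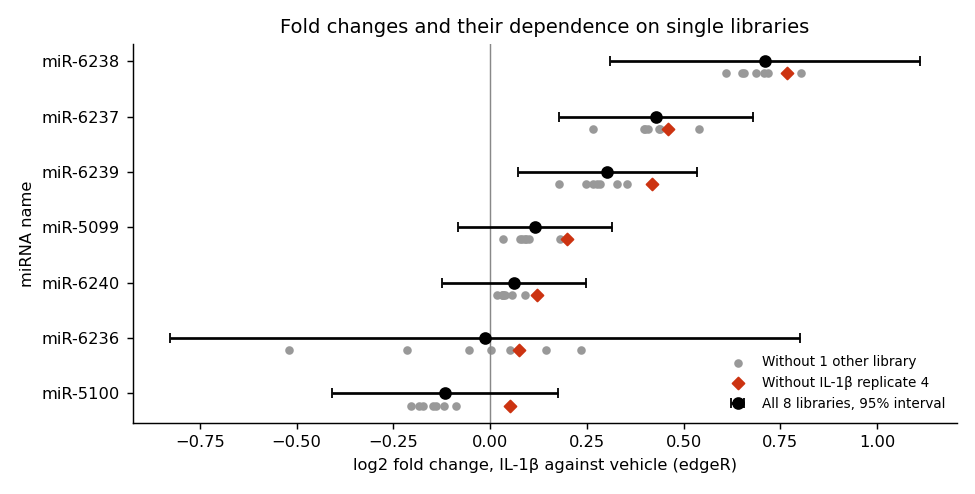
log2 fold change of IL-1β against vehicle (x axis) of the 7 names (y axis) from edgeR with all 8 libraries (black points, with 95% confidence intervals) and with each library left out in turn (gray points, or a red diamond for IL-1β replicate 4). miR-6238 stays between 0.61 and 0.80, whereas miR-5100 moves from -0.12 to 0.052 without IL-1β replicate 4.

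The names did not move as one across the 8 libraries. Pearson's r of log2(normalized CPM + 1) was highest between miR-6239 and miR-6240, at 0.74 (0.70 without IL-1β replicate 4). It was 0.66 between miR-5100 and miR-6240 and 0.62 between miR-6237 and miR-6238, and the lowest value was -0.32, between miR-6236 and miR-6238. Without IL-1β replicate 4 the order of the pairs changed. The highest value was then 0.81, between miR-5100 and miR-6240, and the lowest was -0.66, between miR-5100 and miR-6236 (-0.10 with all libraries). The points are 8 libraries of 2 groups and share their normalization, so these values are descriptive.

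Other miRNAs with the most similar profile were found in the same way, among 190 that averaged 50 counts or more. For miR-6239 they were miR-328-3p (r = 0.90), miR-709 (0.89) and miR-136-3p (0.83). For miR-6240 they were miR-709 (0.88), miR-328-3p (0.76) and miR-1306-5p (0.76). For miR-5099 they were miR-3470b (0.84, or 0.71 without IL-1β replicate 1), miR-92a-1-5p (0.76) and miR-574-5p (0.74, or 0.40 without the same library). For miR-6237 they were miR-8112 (0.78, or 0.55 without IL-1β replicate 2), miR-129-2-3p (0.78) and miR-423-5p (0.77), of which miR-129-2-3p was called (log2 fold change 0.79, edgeR adjusted p = 2.46e-05). For miR-5100 the values for miR-434-3p (0.97), miR-410-3p (0.95) and miR-574-3p (0.92) rested on IL-1β replicate 4, without which they were 0.45, 0.38 and 0.44.

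Names registered next to the set in number were compared as a list. Of 36 such names, 24 had a count, 13 were tested and none was called, with a median log2 fold change of 0.31. The abundant one was miR-6244, at 12001 ± 2104 normalized CPM for vehicle and 15085 ± 2353 for IL-1β (SD over 4 libraries). Its log2 fold change was 0.33 (edgeR adjusted p = 0.196), and that of miR-5121, the next in abundance, was 0.39 (adjusted p = 0.146). A list of 6 other names from miR-664, miR-1839, miR-1291 and miR-1983, miRNAs taken to share sequence with small nucleolar RNAs or tRNA, was also tested. None of the 6 was called, and the median log2 fold change was 0.10. Its most abundant members were miR-664-3p (log2 fold change 0.18) and miR-1839-5p (0.0084). The list took 0.0122% to 0.0168% of counts in a library, below the share of the set without miR-5099.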

How the data were processed

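The authors trimmed reads with cutadapt, aligned them to mm10 with STAR (2.4.2a per the submitters' processing notes, another release per the methods) and deposited raw counts per miRNA name from featureCounts. The handling of reads with several matches and of strand was not given in the sources used here. All 8 count columns were matched to samples by name. Counts without molecular identifiers are not independent molecules.

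The profile comparisons without single libraries and with library totals were added after seeing the data. Groups came from the sample titles. Counts were compared with edgeR 4.0.16 in R 4.3.3 (quasi-likelihood, robust, TMM, two-sided) over all names above 1 CPM in 4 libraries, and the test was checked on simulated data. Alternatives included DESeq2 1.42.0, other scaling and filters, a replicate block, and omission of each library. A separate correction for unwanted variation, described by the study, was not used here. Hairpins were folded with RNAfold 2.7.2, and sequences came from RefSeq (GRCm38.p6) and GENCODE vM21. The named miRNAs were the set, its neighbors in abundance, miR-140-3p, the 3 most similar profiles of each member averaging 50 counts or more, and the called or otherwise the 2 most abundant members of each list. Outside this rule, defining markers at 0 were named, and names that share a motif or a seed with the set were added after the data were seen. The members and lists were chosen with earlier results of these data known.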

Additional observations from a re-analysis of the deposited data

Results flagged for a closer look

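In 16 groups of 4 libraries examined (each name and the share of the set, in each treatment), 1 value lay far from the other 3 of its group. Vehicle replicate 4 held 801 normalized CPM of miR-6239, against 636 to 659 in the other vehicle libraries, and the gap to the nearest of them was 0.861 of the whole span. About 1 in 20 groups would show this by chance. Without that library the log2 fold change of miR-6239 was 0.35 (edgeR adjusted p = 0.216), so the name was not called with or without it.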

How the results depend on the processing

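Leaving out 1 library at a time moved the number of called miRNAs between 6 and 19 (11 with all), with 6 without vehicle replicate 4, 7 without vehicle replicate 2 or IL-1β replicate 3, and 19 without IL-1β replicate 4. The log2 fold changes then ranged from 0.61 to 0.80 for miR-6238, 0.27 to 0.54 for miR-6237, 0.18 to 0.42 for miR-6239, 0.032 (without IL-1β replicate 1) to 0.20 (without IL-1β replicate 4) for miR-5099, 0.018 to 0.12 (without the same libraries) for miR-6240, -0.20 to 0.052 for miR-5100 and -0.52 to 0.24 for miR-6236. miR-6237 was also called without a filter (0.41), and miR-6238 with a minimum mean of 10 counts (0.71) and without the robust option (0.71). The replicate numbers did not pair the libraries (correlations of deviations from -0.34 to 0.17, and 2 of 4 vehicle libraries correlated best with their own number). With the replicate block 19 miRNAs were called, including miR-6237 (0.41, adjusted p = 0.0209) and miR-6238 (0.73, adjusted p = 0.0329). DESeq2 gave miR-6236 no adjusted p, and the minimum mean of 10 counts removed it. The share of the set was 6.30% with vehicle when miR-140-3p was left out of the total, and 0.234% and 0.256% in the 2 groups without miR-5099. Signs of miR-5099, miR-6237, miR-6238, miR-6239 and miR-6240 held in all 16 alternatives. The causes were not tested.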

Other observations

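The letters TGGAATT were found in sense in 6 of 1679 mature sequences, and 4 of these were tested. Their log2 fold changes were 0.43 for miR-6237, 0.35 for miR-6241, 0.33 for miR-6244 and 0.0096 for miR-5110, which had 12 counts in all (SE 0.851). None of the 4 was called. The motif was picked after the sequence of miR-6237 was seen, so the list is no independent evidence of a direction.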
